A study of Mus musculus with 10 samples.

Results

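The mitochondrial ribosomal proteins are described here from ribosome footprints of E14, a line of mouse embryonic stem cells. Members were all genes of the count table whose symbol starts with Mrpl or Mrps followed by a digit, which gave 77 of 11011 genes, 48 with Mrpl symbols and 29 with Mrps symbols. Ribosome profiling sequences the short mRNA stretches that a translating ribosome shields from nuclease, so a gene's count reflects both how much of its mRNA is present and how densely it is read. There were 10 libraries in 5 groups of 2, namely cells labelled as knockouts of Dgcr8, of Drosha, of Dicer, and of Ago1 together with Ago2, and WT cells. All were E14 cells of 129/Ola background, derived from a blastocyst, grown in serum with LIF on gelatine and treated with cycloheximide to arrest elongation, with Drosophila spike-ins added to the RNA. The labels do not say whether a knockout is 1 clone or which part of a gene was deleted.

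Mitochondrial ribosomes translate the few mRNAs that mitochondrial DNA encodes, and these specify core subunits of the oxidative phosphorylation complexes. Their ribosomal RNAs are mitochondrial, but every protein of the particle is encoded in the nucleus, made by cytosolic ribosomes and imported, which is why these mRNAs appear among cytosolic footprints. Some of the proteins descend from bacterial ribosomal proteins and others are found in mitochondrial ribosomes alone. By textbook assignment the members comprised 30 large-subunit proteins with a bacterial counterpart, 20 large-subunit proteins without one, 16 small-subunit proteins with a bacterial counterpart and 10 without. Mrps18a and Mrps30 carry small-subunit symbols but sit in the large subunit, and were counted there. The remaining member, Mrps36, is known as a subunit of the oxoglutarate dehydrogenase complex and is not part of the mitochondrial ribosome. The genes lay on 17 chromosomes, with 11 of them on chromosome 11.

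Promoters are shown for the members whose footprints fell in the Dicer knockout, as described further on, and that hold a motif of a factor known for nuclear genes of mitochondrial proteins. The motifs searched, on both strands, were GCGCATGCG for Nrf1, CCGGAAG for the ETS family, to which the mitochondrial regulator Gabpa belongs, and AAGATGGCG for Yy1. The ETS and Yy1 letters can overlap by the bases AAG. In the RefSeq promoter windows (GRCm38.p6, from 250 bases before to 50 bases after the start), 68 of the 77 members had an entry. At least 1 motif was found in 51.5% of these members, in 27.7% of the 8730 genes of the count table with an entry, and in 12.7% of all 27025 genes with an entry. The ETS motif was in 36.8% of members and 21.4% of genes of the table, the Nrf1 motif in 10.3% and 4.49%, and the Yy1 motif in 11.8% and 3.94%. Capitals mark the motif, on the strand of the gene or as its reverse complement. The stretch of Mrpl34 is chr8:71464866-71464955 on the plus strand, with the motif starting 37 bases before the transcription start. For Mrps21 it is chr3:95871485-95871574 on the minus strand, with the motif 18 bases after the start. Both run from 60 bases before the RefSeq start through the first 30 bases transcribed by RefSeq. The GENCODE M21 annotation starts Mrpl34 at 71464959, so by it the whole stretch of Mrpl34 lies before the gene. The sites of Mrpl42 (chr10:95501903-95501932, minus strand, 27 bases after the start) and of Mrpl18 are shown as windows of 30 bases. That of Mrpl18 is chr17:12916312-12916341 on the minus strand, 240 bases before the RefSeq start. The GENCODE M21 annotation starts this gene at 12916345, so by it the window lies within the gene.
Mrpl34: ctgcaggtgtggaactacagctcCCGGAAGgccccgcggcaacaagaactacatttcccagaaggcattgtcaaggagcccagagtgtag
Mrps21: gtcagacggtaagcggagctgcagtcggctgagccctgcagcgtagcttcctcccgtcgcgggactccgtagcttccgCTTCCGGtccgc
Mrpl42: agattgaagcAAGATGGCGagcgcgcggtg
Mrpl18: actgaaaacgCCGGAAGtagggggctgcgg

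Mrpl12, Mrpl28 and Mrps9 also fell in the Dicer knockout, and none of the 3 motifs' letters were in their windows. Thus 4 of 7 such members had a motif, beside 51.5% of all members with an entry. A match describes the sequence and is not evidence of binding.

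Library totals ran from 1754710 to 80850950 counts, and a typical member had between 89 counts (median, second Dicer library) and 4940 counts (first library labelled Dgcr8 knockout). Levels are given as CPM, the count divided by the scaled library size and set to a common depth. In 3 of the knockouts a targeted gene fell, with Drosha at 24.3 and 34.5 CPM against 177 and 178 CPM, Dicer1 at 15.8 and 22.1 CPM against 122 and 124 CPM, and Ago2 at 14.9 and 6.61 CPM against 81.9 CPM in both WT libraries. Ago1 was at 27.0 and 10.7 CPM in the libraries labelled Ago1 and Ago2 knockout and at 14.7 and 14.3 CPM in WT and did not pass the test, so of the targeted pair only Ago2 fell. Dgcr8 went against its label, at 145 and 146 CPM in the libraries labelled Dgcr8 knockout and 32.7 and 33.1 CPM in WT. Directions given for either set of libraries are subject to this mismatch. Dgcr8 also passed as higher than WT in edgeR in the other 3 knockouts, with means of 70.3 CPM in Dicer and 69.0 CPM in the labelled Ago libraries. Ago1 passed as higher in the Drosha and Dicer knockouts, with a mean of 72.5 CPM in Dicer and 14.5 CPM in WT. The cause of these rises was not tested. The pair labelled Dgcr8 knockout also stood apart from each other: over all genes the first correlated with the WT libraries at r = 0.963 and 0.953 and with the second at 0.934 (log2 CPM, a description). The 12 pluripotency genes listed summed to between 5638 and 7164 CPM in every library, with none at 0, but not every gene of the list stayed level. Klf4 fell to a mean of 51.1, 19.7 and 47.8 CPM in the Drosha, Dicer and labelled Ago libraries, against 146 CPM in WT, and Klf2 rose to 662, 742 and 624 CPM, against 144 CPM in WT (edgeR adjusted p between 0.0018 and 0.035). The 10 primitive endoderm markers in the table (of 12 listed) summed to between 843 and 5835 CPM in the knockout libraries and to 9868 and 11109 CPM in WT, with Gata6 at 0 in 4 knockout libraries and the highest knockout sum in the first library labelled Dgcr8 knockout, against 1488 CPM in the second. Their part in the results below was not tested, and in bulk samples fewer cells of a type and fewer footprints per cell cannot be told apart.

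Within WT, most members had similar footprint levels. Per kilobase of coding length the median member had 94.3 CPM, and 58 of 77 lay within 2-fold of it. The middle of the distribution, from the 25th to the 75th percentile, spanned 66.1 to 133 CPM per kilobase. The large subunit's median was 99.0 and the small subunit's 91.3 CPM per kilobase, a gap smaller than the spread among members. The highest level was that of Mrpl15, a large-subunit protein with a bacterial counterpart, at 361 and 373 CPM per kilobase in the WT libraries. It was followed by Mrps14, Mrpl13, Mrpl24 and Mrps17 at means of 344, 265, 257 and 254 CPM per kilobase. Mrpl15 and Mrps14 did not separate, since the first WT library gave 362 CPM per kilobase for Mrps14.

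The lowest levels belonged to genes with processed copies elsewhere. Mrpl23, a protein known at the exit of the peptide tunnel, had 0 and 8 counts in the WT libraries, or 0.322 CPM per kilobase, and Mrps36 and Mrpl48 had 8.53 and 26.3 CPM per kilobase. Of Mrpl23's coding sequence 80.6% of all 28-base stretches also occur in the annotated pseudogene Mrpl23-ps1, and for Mrps36 the share was 100% over 11 copies. Of the 77 members, 34 shared a 28-base stretch with another annotated gene and 12 shared over 50% of them. These 12 had a median of 40.2 CPM per kilobase, against 114 for the 22 that shared less and 100 for the 43 that shared none, and 7 of the 12 were among the 10 lowest members. How reads matching several genes were counted is not given in the sources used here, so the levels of these members are uncertain. In the Dicer knockout the median log2 fold change was -0.26 for the 12, -0.59 for the 22 and -0.28 for the 43. Whether reads from the copies also affect differences between groups was not tested. Among the members that fell in the Dicer knockout, this share was 48.6% for Mrpl42, 47.4% for Mrps21, 32.9% for Mrpl18, 26.0% for Mrpl12, 0.134% for Mrpl28, and 0 for Mrpl34 and Mrps9. Coding bases of 13 members overlapped a gene on the opposite strand, among them Mrpl18 with Tcp1 over 124 bases and Mrpl12 with Gm16755 over 73 bases, and 3 overlapped a gene on the same strand. Reads there cannot be assigned to 1 gene without the strand setting.

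**Figure D1:**
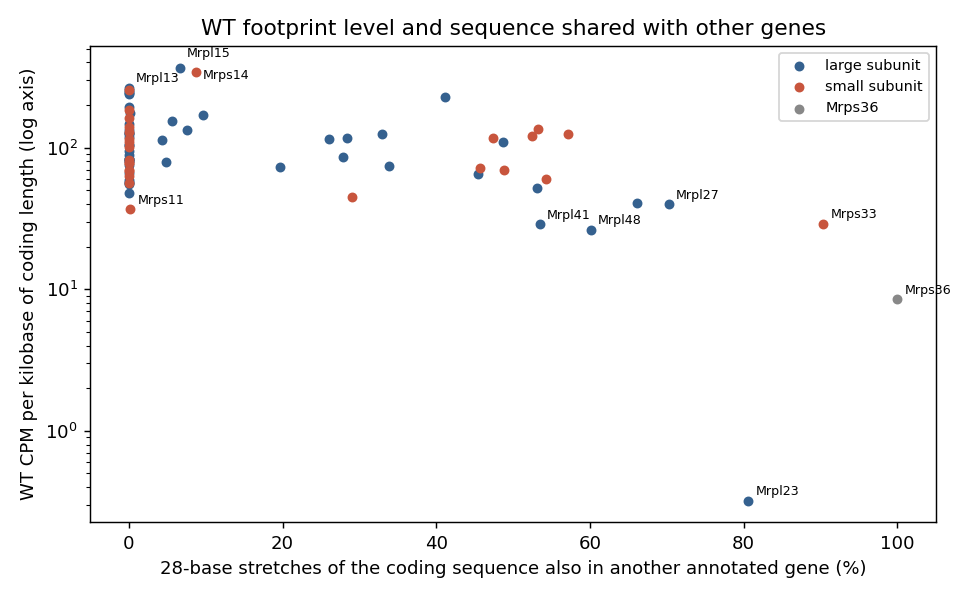
WT level of each of the 77 members (mean CPM per kilobase of coding length of 2 libraries, log axis) against the share of 28-base stretches of its coding sequence found in another annotated gene. Members with over 50% shared sequence reach down to 0.322 CPM per kilobase (Mrpl23), while the 43 without shared stretches have a median of 100.

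Summed over all members, the footprints took 0.365% and 0.442% of all counts in the Dicer knockout libraries. In the Drosha knockout the share was 0.447% and 0.492%. In WT it was 0.540% and 0.535%, so that both Dicer and both Drosha libraries lay below both WT libraries. The libraries labelled Dgcr8 knockout gave 0.541% and 0.558%, which overlapped WT once library sizes were scaled (0.530% and 0.551%, against 0.552% and 0.526% in WT). The libraries labelled Ago1 and Ago2 knockout differed from each other, at 0.413% in the first and 0.554% in the second. An exact permutation test of 2 libraries against 2 cannot give a p under 0.333, so these shares are given without one. The ratio of large-subunit to small-subunit counts stayed between 2.02 and 2.31 in every library, with 2.08 and 2.27 in the Dicer libraries, beside 2.17 and 2.11 in WT.

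**Figure D2:**
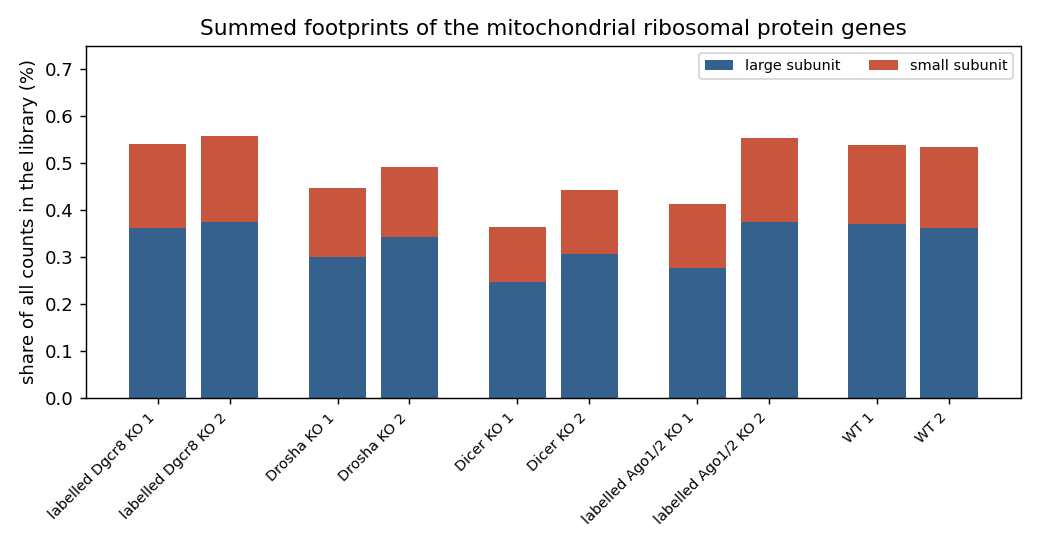
Share of all counts (%) taken by large-subunit members (blue) and small-subunit members (red, stacked on top) in each library, knockouts left of WT; Mrps36 is not drawn. The lowest bar is the first Dicer library, with 0.365% for all members, and the first library labelled Ago1 and Ago2 knockout stands apart from the second.

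Dicer matures miRNAs from their precursors in the cytoplasm. In the Dicer knockout footprints of 7 members fell and of 0 rose at an adjusted p under 0.05 in edgeR's quasi-likelihood test with Benjamini-Hochberg adjustment over 10978 genes. This was 9.09% of members, beside 3.76% of all genes tested that fell and 7.35% that rose. Without adjustment 17 members were lower at p under 0.05, or 22.1%, beside 11.9% of all genes, and 0 were higher. Both Dicer libraries lay below both WT libraries for 47 members (61.0%, beside 34.6% of all genes) and above both for 3 (beside 32.7% of all genes). The median member changed by -0.39 on the log2 scale, while the median of all genes tested was near zero.

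Of the 7, 4 encode large-subunit proteins with a bacterial counterpart. Mrpl34, one of the shortest members with 276 coding bases on chromosome 8 from 71464959 to 71465747 (GRCm38), had 28.5 and 21.0 CPM in the Dicer knockout and 72.6 and 61.7 CPM in WT. The groups did not overlap, and the log2 fold change was -1.42 (SE 0.30, adjusted p = 0.013, edgeR). Mrpl28 had 46.7 and 67.3 CPM in the Dicer knockout and 126 and 143 CPM in WT, again without overlap (log2 fold change -1.25 with SE 0.31, edgeR adjusted p = 0.025). Mrpl12, whose bacterial counterpart forms the stalk that recruits translation factors to the ribosome, had 25.1 and 37.5 CPM in the Dicer knockout and 67.5 and 72.3 CPM in WT. Its highest Dicer library was below its lowest WT library, with a log2 fold change of -1.18 (SE 0.32, adjusted p = 0.035, edgeR). Mrpl18, a protein of the central protuberance, had 24.5 and 32.5 CPM in the Dicer knockout and 70.0 and 64.4 CPM in WT, with no overlap (log2 fold change -1.25 with SE 0.36, edgeR adjusted p = 0.046).

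The other 3 were 1 large-subunit protein found in mitochondria alone and 2 small-subunit proteins with bacterial counterparts. Mrpl42 had 16.6 and 21.5 CPM in the Dicer knockout and 49.7 and 43.1 CPM in WT (log2 fold change -1.30 with SE 0.36, edgeR adjusted p = 0.039). Mrps21, the member with the shortest coding sequence of these (261 bases), had 12.3 and 9.38 CPM in the Dicer knockout and 32.0 and 29.0 CPM in WT (log2 fold change -1.47 with SE 0.37, edgeR adjusted p = 0.026). For both, the WT libraries were more than 2-fold above the Dicer libraries' mean. Mrps9, whose bacterial counterpart reaches the transfer RNA site of the small subunit, had 63.1 and 77.8 CPM in the Dicer knockout and 127 and 140 CPM in WT (log2 fold change -0.93 with SE 0.27, edgeR adjusted p = 0.049). Just outside the threshold were Mrpl4 at log2 -0.92, Mrpl30 at -1.13 and Mrps17 at -1.23, with adjusted p of 0.051, 0.053 and 0.057 in edgeR.

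**Figure D3:**
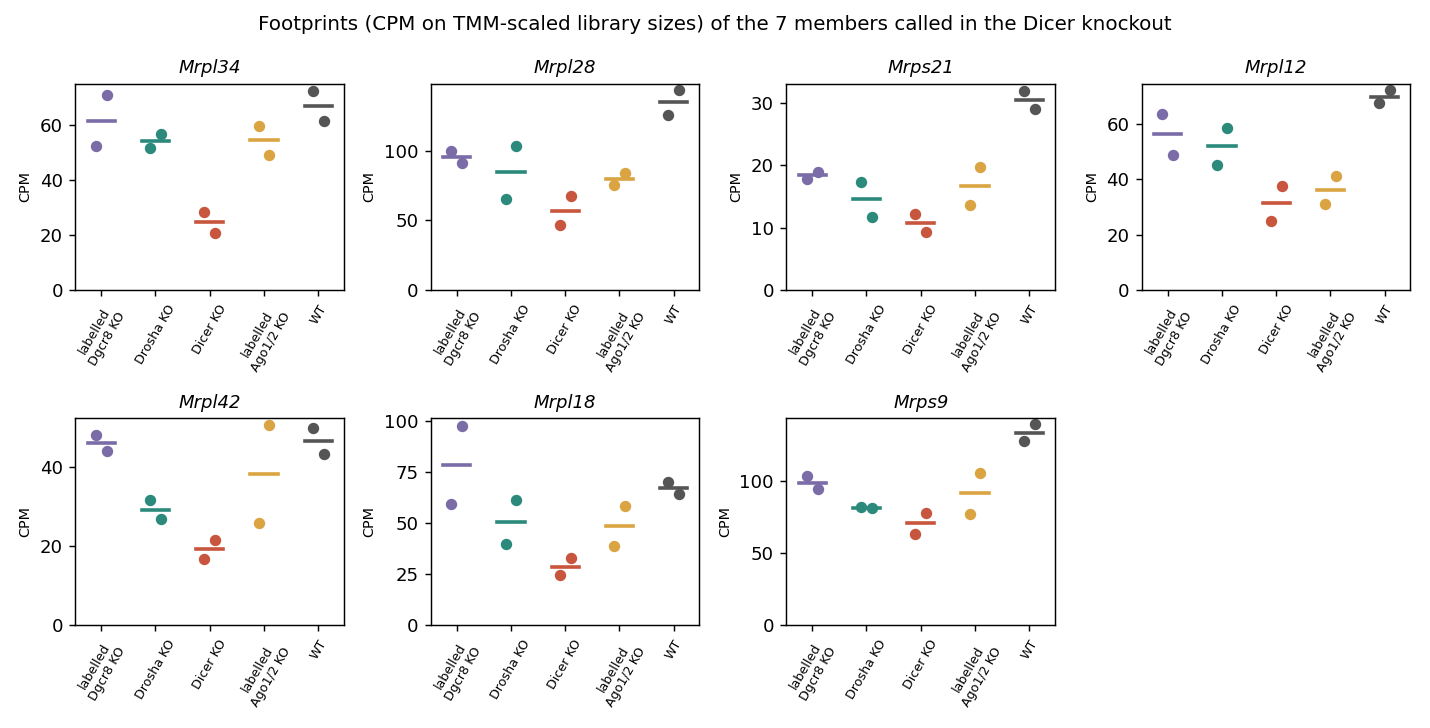
Footprint level (CPM, axis from 0) in each library of the 7 members that fell in the Dicer knockout, with 1 point per library, a bar at the group mean, and the knockouts left of WT. In every panel both Dicer points lie below both WT points. Mrps21, Mrpl28, Mrpl12 and Mrps9 are below WT in all 8 knockout libraries.

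Members that lay above WT in both Dicer libraries did so by little. Mrpl32, a large-subunit protein whose maturation by a mitochondrial protease is known to precede ribosome assembly, had 63.3 and 58.5 CPM in the Dicer knockout and 50.3 and 46.3 CPM in WT. Mrps7 and Mrps15, small-subunit proteins with bacterial counterparts, showed log2 fold changes of 0.31 and 0.29, and that of Mrpl32 was 0.34. None of these passed the test, at adjusted p of 0.50, 0.51 and 0.52 in edgeR. Of the members named above as highest in WT per kilobase, only Mrpl13 was level. It was at 150 and 135 CPM in the Dicer knockout and 156 and 127 CPM in WT. The means of Mrpl15, Mrps14 and Mrpl24 were 177, 79.4 and 94.5 CPM in the Dicer knockout. In WT their means were 325, 132 and 167 CPM, and Mrps17 was lower too, as given above. These lower members did not pass the test either.

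By role, the median log2 fold change in the Dicer knockout was -0.40 for large-subunit proteins with a bacterial counterpart (4 of 30 fell) and -0.28 for those without (1 of 20 fell). It was -0.54 for small-subunit proteins with a bacterial counterpart (2 of 16 fell) and -0.35 for those without (0 of 10). The difference between roles was not tested. Fold changes also moved with coding length. Among all genes tested, those under 600 coding bases had a median of -0.42 (1283 genes) and longer ones 0.05 (9693 genes) in the Dicer knockout. Members under 600 bases had a median of -0.40 (39 genes), near that of other short genes, and longer members had -0.36 (38 genes), away from the median of long genes. Among short genes 4 of 39 members fell (10.3%), beside 6.16% of all short genes, and among longer ones 3 of 38 members (7.89%), beside 3.45% of all longer genes. Short genes stood at -0.35 in the Drosha knockout too, where the short members had -0.37 and the longer members -0.17, beside 0.04 for all long genes.

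**Figure D4:**
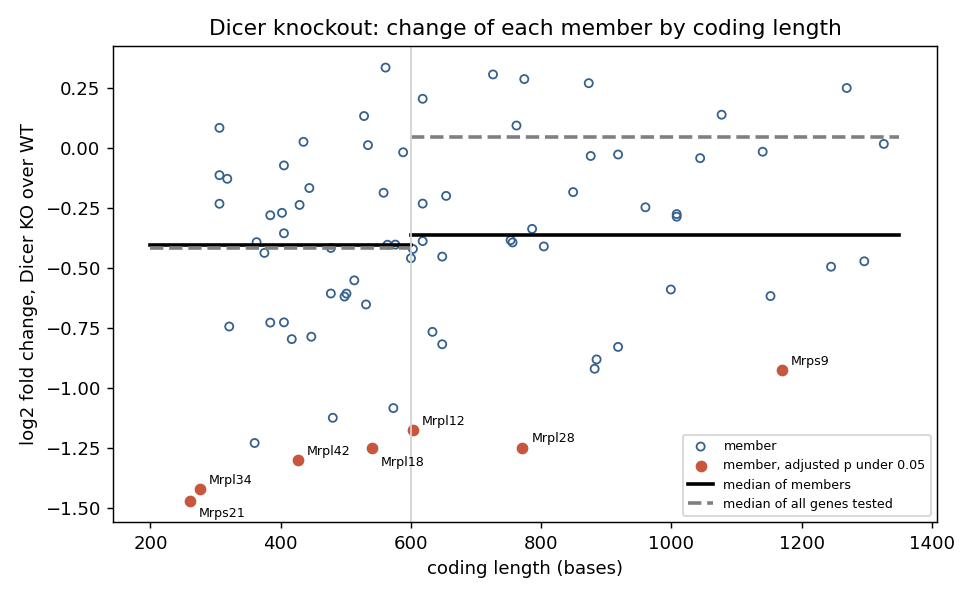
Log2 fold change in the Dicer knockout over WT against coding length (bases), 1 point per member, filled and named where adjusted p was under 0.05; Mrpl23 is not drawn because it had 0 to 18 counts per library. Black lines are the members' medians under and from 600 bases (-0.40 and -0.36), and dashed lines those of all genes tested (-0.42 and 0.05).

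None of the 7 calls held when any 1 of the 2 Dicer or the 2 WT libraries was left out. Such fits leave 1 library in a group compared, and fewer of all genes were called lower in them too. Leaving out either library labelled Ago1 and Ago2 knockout gave more members called lower, and more of all genes. A fit to Dicer and WT libraries alone called 20, all lower and including the 7, beside 13.1% of all genes called lower in that fit. The trophectoderm markers in the table, 5 of 9 listed and none at 0, summed to 857 and 618 CPM in the Dicer knockout and to 150 and 182 CPM in WT. They were the keratins Krt7, Krt8, Krt18 and Krt19, which rose, and Tfap2c, which was not called. The listed Cdx2, Eomes, Elf5 and Gata3 were not in the table. The fibroblast markers, 5 of 8 listed and none at 0, summed to 96.3 and 46.9 CPM in the Dicer knockout and to 277 and 250 CPM in WT, and Col6a2, Fbln2 and Mmp2 of them fell. The primitive endoderm markers summed to 1123 and 843 CPM there and to 9868 and 11109 CPM in WT, with Gata6 at 0 in both Dicer libraries and Sox17 in the second. The part of these lists in the members' change was not tested.

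In the Drosha knockout, which lacks the nuclease that cuts primary miRNA transcripts in the nucleus, 0 members passed the adjusted threshold in edgeR, beside 3.44% of all genes. DESeq2 called 0, beside 3.11% of all genes called lower and 5.75% higher. In limma-voom 0 were called, beside 0.109% lower and 0.902% higher. At an unadjusted p under 0.05 there were 8 members (10.4%, beside 19.2% of all genes). Both Drosha libraries lay below both WT libraries for 44 members, or 57.1%, beside 27.9% of all genes, and above both for 6, beside 25.9%. The median log2 fold change was -0.31, with -0.28 for the large and -0.30 for the small subunit, and -0.01 for all genes. The trophectoderm markers summed to 377 and 375 CPM in the Drosha knockout and to 150 and 182 CPM in WT, and Krt18 and Krt7 of them rose. The part of these markers in the members' values was not tested. Among members with at least 20 CPM in 1 of the groups, Mrps21 was lowest against WT, at 17.4 and 11.8 CPM in the Drosha knockout and 32.0 and 29.0 CPM in WT (log2 fold change -1.07 with SE 0.37, edgeR adjusted p = 0.13). Mrpl24, a large-subunit protein with a bacterial counterpart, was at 86.0 and 88.7 CPM in the Drosha knockout and 169 and 165 CPM in WT (log2 fold change -0.93 with SE 0.34, edgeR adjusted p = 0.15). The libraries of these genes did not overlap between the groups, yet neither passed. Mrpl30 followed at log2 -0.88. Below 20 CPM, Mrps33, Mrps36 and Mrpl48 had log2 fold changes of -1.45, -1.40 and -0.97, and they did not pass either. On the other side Mrpl37, a large-subunit protein of mitochondria alone, had 116 and 149 CPM in the Drosha knockout and 82.2 and 68.8 CPM in WT (log2 fold change 0.81 with SE 0.29, edgeR adjusted p = 0.15). Mrpl32 and Mrps7 came next among members with at least 20 CPM, with log2 fold changes of 0.60 and 0.59. Mrpl23, below that level, was also above WT in both Drosha libraries, on 1 and 3 counts.

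Ago1 and Ago2 are proteins that hold small RNAs on their targets, and the libraries labelled as their knockout disagreed on the members. Measured against the WT mean, the median member stood at -0.35 on the log2 scale in the first of these libraries and at 0.15 in the second, while the median of all genes was 0.02 and 0.01. The median fitted change over both was -0.11, 0.14 without the first library and -0.36 without the second. No direction is therefore given for the members together. In edgeR 0 members passed, beside 2.88% of all genes, with 4 at an unadjusted p under 0.05 (beside 19.7%). DESeq2 called 0, beside 3.0% of all genes called lower and 5.49% higher. In limma-voom 1 was called lower and 0 higher, beside 3.88% of all genes called lower and 4.7% higher. Both libraries lay below both WT libraries for 24 members (31.2%, beside 26.1% of all genes) and above both for 6 (beside 27.2%). Mrpl12, the member that limma-voom called, was at 31.1 and 41.4 CPM in these libraries and 67.5 and 72.3 CPM in WT (log2 fold change -0.95 with SE 0.30, adjusted p = 0.12 in edgeR and 0.047 in limma-voom). Mrps21 and Mrpl28 were next at log2 -0.86 and -0.76, and both libraries of each were below WT. Of the 6 above WT in both libraries, 3 are named, those with the largest changes among members with at least 20 CPM in 1 of the groups. They were Mrpl46 (68.1 and 71.8 CPM, against 52.0 and 41.9 CPM in WT), Mrps18b (78.2 and 79.0 CPM, against 59.0 and 47.6 CPM) and Mrpl32. Their log2 fold changes of 0.58, 0.56 and 0.51 did not pass. Mrpl23, below that level, was also above WT in both libraries, on 18 and 17 counts. The second library had 3.94% of its counts in a single gene, beside at most 1.04% in any other library.

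In the libraries labelled Dgcr8 knockout the median member was near WT. In edgeR 0 passed, beside 0.0729% of all genes, with 1 at an unadjusted p under 0.05 (beside 9.81%). DESeq2 called 0, beside 0.528% of all genes called lower and 0.929% higher. In limma-voom 0 were called, beside 0.0638% lower and 0.0729% higher. Below both WT libraries were 15 members (beside 22.9% of all genes, against 19.5% of members) and above both were 18 (23.4% of members, beside 22.0%). The median log2 fold change was 0.04, and 0.02 for all genes. With the first library left out it was 0.0465 and with the second 0.0412, although the libraries stand apart over all genes. The member furthest above WT was Mrps18b, a small-subunit protein of mitochondria alone and 1 of 3 related Mrps18 genes, at 75.5 and 136 CPM in the libraries labelled Dgcr8 knockout and 59.0 and 47.6 CPM in WT (log2 fold change 0.99 with SE 0.31, edgeR adjusted p = 0.33). Its related genes Mrps18a and Mrps18c showed 0.05 and 0.33. Mrpl9 and Mrpl46 had log2 fold changes of 0.47 and 0.41. Among members with at least 20 CPM in 1 of the groups, the lowest against WT were again Mrps21, at 17.9 and 18.9 CPM against 32.0 and 29.0 CPM (log2 fold change -0.73 with SE 0.34, edgeR adjusted p = 0.52), then Mrpl30 and Mrpl28 at -0.60 and -0.50. Mrpl48, below that level, was also at -0.60.

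**Figure D5:**
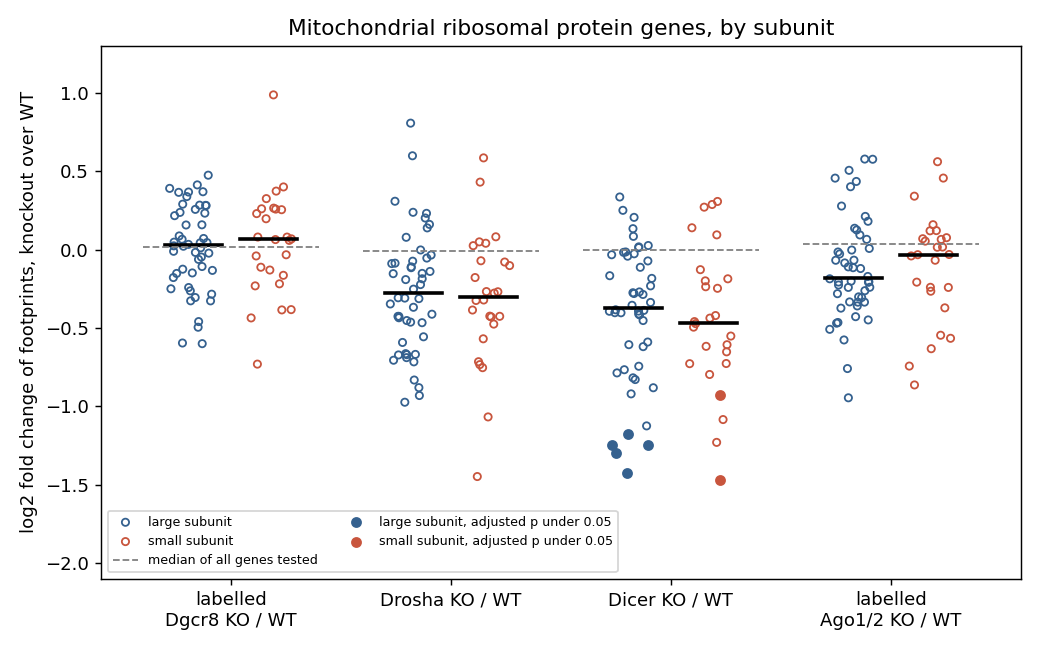
Log2 fold change of each member's footprints in each knockout over WT, for 49 large-subunit members (blue) and 26 small-subunit members (red), without Mrps36 and Mrpl23; filled points passed an adjusted p of 0.05, black bars are medians over each subunit's members and dashed lines the median of all genes tested. The members' medians lie below the dashed line in the Drosha and Dicer knockouts (-0.28 and -0.30, -0.37 and -0.47 for large and small subunit) and near it in the libraries labelled Dgcr8 knockout.

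Mrps21 was below WT in all 8 knockout libraries, at 9.38 to 19.8 CPM against 29.0 and 32.0 CPM in WT. It was the 1 member past the threshold when the mean of the 4 knockouts was compared with WT (log2 fold change -1.03 with SE 0.26, edgeR adjusted p = 0.034), beside 3.26% of all genes that fell. All 8 knockout libraries were below both WT libraries for 10 members, or 13.0%, beside 8.05% of all genes, and above both for 1, beside 8.15%. Mrps21, Mrpl28, Mrpl12 and Mrps9 were among the 10. The comparisons with WT share the same 2 WT libraries, so the values of a member across knockouts are not independent of each other. The call of Mrps21 was lost without either WT library and without either Dicer library.

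Differences between knockouts were tested directly. Against the libraries labelled Dgcr8 knockout, 2 members were lower in the Dicer knockout, beside 0.884% of all genes. Mrpl34 had 28.5 and 21.0 CPM in the Dicer knockout and 52.4 and 71.1 CPM in the libraries labelled Dgcr8 knockout. This was a log2 fold change of -1.30 with SE 0.30 (edgeR adjusted p = 0.036). Mrpl18 had 24.5 and 32.5 CPM in the Dicer knockout and 59.1 and 97.6 CPM in the libraries labelled Dgcr8 knockout. Its log2 fold change was -1.47 with SE 0.36 (edgeR adjusted p = 0.045). Neither overlapped, but both calls were absent in a fit to these 4 libraries alone and in limma-voom. Both Dicer libraries were below both of these for 45 members (58.4%, beside 26.0% of all genes) and above both for 0 (beside 25.7%). In the other 5 comparisons between knockouts 0 members passed in edgeR. At an unadjusted p under 0.05 there were 4 members for Drosha against the libraries labelled Dgcr8 knockout (beside 11.5% of all genes), 2 for Ago against those (12.5%), 3 for Dicer against Drosha (7.55%), 2 for Ago against Drosha (9.25%) and 8 for Ago against Dicer (12.3%). These are 5.19%, 2.60%, 3.90%, 2.60% and 10.4% of members, each below the share of all genes. The share of all genes past the adjusted threshold was 0.501% for Drosha against the libraries labelled Dgcr8 knockout, 0.483% for Ago against those, 0.00911% for Dicer against Drosha, 0.0455% for Ago against Drosha and 0.547% for Ago against Dicer, where Ago stands for the libraries so labelled. DESeq2 called 1 member, higher in the libraries labelled Ago1 and Ago2 knockout than in the Dicer knockout, beside 1.37% of all genes called higher there. In limma-voom 0 were called in these 5, beside at most 1.23% of all genes called lower and 2.74% higher in any of them.

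Other mitochondrial translation genes were read from lists chosen for their known roles. The 5 mitochondrial ribosomal proteins with other names, Dap3, Ptcd3, Chchd1, Aurkaip1 and Gadd45gip1, had a median log2 fold change of -0.35 in the Dicer knockout and 0 of 5 passed in any knockout. Of all genes 3.76% fell and 7.35% rose in the Dicer knockout. In edgeR 3.44% of all genes passed in Drosha, 2.88% in the labelled Ago libraries and 0.0729% in those labelled Dgcr8 knockout. These shares also stand beside the counts of the lists below. Aurkaip1, a small-subunit protein, was at 80.5 and 60.7 CPM in the Dicer knockout and 121 and 113 CPM in WT (log2 fold change -0.72 with SE 0.27, edgeR adjusted p = 0.11), while Ptcd3, a small-subunit protein that binds ribosomal RNA, was at 243 and 257 CPM and 221 and 192 CPM (log2 0.27). Of 26 assembly and rRNA modification genes tested, 1 fell and 1 rose in the Dicer knockout, beside 3.76% and 7.35% of all genes. Mterf4, which brings an rRNA methyltransferase to the large subunit, fell to 20.4 and 24.3 CPM in the Dicer knockout, against 45.6 and 47.4 CPM in WT (log2 fold change -1.07 with SE 0.28, edgeR adjusted p = 0.032). Mtg2, a GTPase of large-subunit assembly, was at 44.1 and 40.8 CPM in the Dicer knockout and 13.5 and 13.9 CPM in WT (log2 fold change 1.64 with SE 0.46, edgeR adjusted p = 0.040). Mitochondrial translation factors (14 tested) had a median of -0.39 in the Dicer knockout, -0.27 in Drosha, -0.08 in the labelled Ago libraries and -0.02 in the libraries labelled Dgcr8 knockout, with 0 called in each. The 9 genes tested of mitochondrial transcription and genome maintenance had -0.35 in the Dicer knockout, and the 9 nuclear regulators, among them those whose motifs were searched, had -0.06, with 0 called in either. The 77 cytosolic ribosomal proteins tested had -0.02 in the Dicer knockout and 0.68 in the libraries labelled Ago1 and Ago2 knockout, with medians of -0.39 and -0.11 for the mitochondrial ones. Libraries of a group were not alike in this: cytosolic ribosomal proteins took 1.09% and 1.68% of counts in the Dicer libraries and 1.35% and 2.41% in the labelled Ago libraries, against 1.42% and 1.34% in WT.

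A pair of members has RefSeq starts close together. Mrps11 and Mrpl46 on chromosome 7 run in opposite directions from RefSeq starts at 78783131 and 78783089, with the following 41 bases between them, chr7:78783090-78783130, given on the strand of Mrps11.
Mrps11: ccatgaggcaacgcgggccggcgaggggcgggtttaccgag

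The values of this pair in the Dicer knockout were as follows. Mrps11, a small-subunit protein with a bacterial counterpart, had 9.89 and 9.93 CPM in the Dicer knockout and 23.5 and 18.6 CPM in WT (log2 fold change -1.08 with SE 0.40, edgeR adjusted p = 0.11). Mrpl46, of the large subunit, had 39.7 and 43.0 CPM in the Dicer knockout and 52.0 and 41.9 CPM in WT (log2 fold change -0.18 with SE 0.27, edgeR adjusted p = 0.70). The log2 fold changes of Mrps11 and Mrpl46 were -0.73 and 0.16 for the Drosha knockout, 0.16 and 0.58 for the libraries labelled Ago1 and Ago2 knockout, and -0.13 and 0.41 in the libraries labelled Dgcr8 knockout. Mrpl46 had the higher value of the pair in each, none of these changes passed the test, and the difference between both genes was not tested. In the GENCODE M21 annotation Mrpl46 starts at 78783531 and Mrps11 at 78783119, so by it the genes overlap and no stretch separates their starts. The overlap covers 65 coding bases of Mrps11, where reads cannot be told apart without strand.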

How the data were processed

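Ribosome footprints of 10 mouse E14 libraries, 2 in each of 5 groups, were analysed. The deposited table, made by the authors, holds whole-number counts of reads per gene for 11011 genes and was not normalized. Per the labels' protocols, cells were treated with cycloheximide and lysates with RNase I, and ribosomal RNA was depleted. The submitters' processing notes list Trimmomatic, Bowtie2, mm10/GRCm38 and dm6/BDGP6. The tools' versions and roles, the counting tool, its annotation and strand setting are not given in the sources used here. Columns were matched to samples by the library number in the labels. For the libraries labelled Ago knockout the column names and titles number the replicates differently, and the titles were followed.

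Counts were analysed with edgeR 4.0.16 in R 4.3.3, with TMM scaling and filterByExpr, which removed 33 genes and left 10978, with all 77 members. The spike-ins were not used for scaling, so a gene fell or rose relative to the other genes of the table. A quasi-likelihood model over the 5 groups (5 residual degrees of freedom, biological coefficient of variation 0.306) gave 2-sided tests, adjusted by Benjamini-Hochberg over all genes within each comparison, at 0.05. Each SE was derived from the fold change and its F statistic. Called means past that threshold. Alternatives were DESeq2 1.42.0, limma 3.58.1 (voom), other size factors, no filter, only the groups compared, single libraries left out and a replicate block. The script was tested on simulated data. Nothing in the labels says that replicates came from separate cultures, so the spread behind the p-values may be technical, and with 2 libraries a group the precision is low. Depth ran from 1754710 to 80850950 counts.

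Coding length, positions, overlaps and shared 28-base stretches came from GENCODE M21 on GRCm38, where all 11011 gene identifiers were found, and promoters from RefSeq on GRCm38.p6. Named were the targeted genes, the members called, the 3 members per direction and knockout changed most, given 20 CPM or more in 1 of the groups and both libraries on 1 side of WT, the 5 highest and 3 lowest in WT per kilobase, and called members of the other lists. Mrpl4, Mrps17, Mrpl13, Mrps11, Mrps33, Mrps18a and Mrps18c were added after their values were seen. Members and lists were chosen with earlier results of these data known.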

Additional observations from a re-analysis of the deposited data

Results flagged for a closer look

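The difference between knockouts passed the test for 2 members, both lower in Dicer than in the libraries labelled Dgcr8 knockout. Of all genes 0.884% were called lower in that comparison. In the Dicer knockout against the libraries labelled Dgcr8 knockout, Mrpl34 had a log2 fold change of -1.30 (adjusted p = 0.036, edgeR) and Mrpl18 of -1.47 (adjusted p = 0.045, edgeR), so their changes against WT differ between these groups. Both libraries of the Dicer knockout were below both libraries labelled Dgcr8 knockout for each gene. Across 17 settings each was called in 9, with log2 values from -1.56 to -1.07 for Mrpl34 and from -1.79 to -1.07 for Mrpl18. Neither was called in limma-voom or in a fit to only the groups compared. Dgcr8 itself goes against the label of the libraries labelled Dgcr8 knockout.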

How the results depend on the processing

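With 2 libraries a group, calls depended on the fit more than directions did. Members called in the Dicer knockout against WT, all lower, numbered 11 with DESeq2 (beside 6.23% of all genes called lower) and 4 with limma-voom (2.24%). They numbered 20 with only the groups compared (13.1%) and 12 with the replicate block (6.80%). With RLE size factors there were 5 (3.72%) and with total counts 6 (4.06%). With single libraries left out the calls varied, and none held without either Dicer or either WT library, where fewer of all genes were called lower too. The 7 members of the main test were all among those called with DESeq2, the smaller fit and the block. In the mean of the 4 knockouts, 3 members were called with DESeq2 (beside 4.74% of all genes called lower) and 2 with limma-voom (4.0%). There were 4 without both libraries labelled Dgcr8 knockout (5.31%) and 5 with the replicate block (6.21%). None were called without either Dicer or either WT library, where fewer of all genes were called lower too. For the Dicer knockout against the libraries labelled Dgcr8 knockout, 4 were called with DESeq2 (2.09%) and 0 with limma-voom (0.355%). There were 0 with only the groups compared (0.701%) and 3 with the replicate block (1.76%). None were called without either library labelled Dgcr8 knockout, either Dicer or either WT library, where fewer of all genes were called lower too. DESeq2 called 1 higher for Ago against Dicer (beside 1.37% of all genes called higher), and limma-voom 1 lower for Ago against WT (3.88% called lower).

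The median log2 fold change of members, with single libraries left out, ranged from -0.37 to -0.21 in the Drosha knockout and from -0.45 to -0.28 in the Dicer knockout. In the libraries labelled Ago knockout it ranged from -0.36 to 0.14, and reversed to 0.14 without the first of them. In the libraries labelled Dgcr8 knockout it was 0.0564 with RLE size factors, 0.0716 with total counts, 0.0582 with DESeq2, 0.0204 with limma-voom and 0.0346 with only the groups compared, and 0.0164 to 0.0680 with single libraries left out. Without the 100 highest genes the mean share of counts was 0.670% in the libraries labelled Dgcr8 knockout, 0.573% in Drosha, 0.495% in Dicer, 0.599% in Ago and 0.663% in WT. Ago1 in the libraries labelled Ago knockout reversed to -0.44 without the first of them and was 0.90 without the second. Among values for single genes, 574 kept direction and call, 62 lost the call, 1 gained it and 1 reversed. The cause was not tested in any of these. The labels do not say that replicate numbers pair libraries. Deviations of same-numbered libraries correlated positively in 10 of 10 pairs of groups and at over 0.1 in 9, from 0.061 between the Dgcr8 and Drosha groups to 0.287. The block raised the calls as given above.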
